A study of Homo sapiens with 6 samples.

Results

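The respiratory chain of the inner mitochondrial membrane and the genes that assemble it were examined in the human hepatoma line HuH7 after depletion of the long noncoding RNA EGOT. Members were chosen by gene symbol alone: symbols beginning with NDUF, SDHA to SDHD, SDHAF, UQCR, UQCC, COX followed by a digit, or ATP5, together with CYC1, CYCS, BCS1L, SURF1, SCO1 and SCO2. These symbols stood for 53 probe sets and 51 genes among 14812 named genes, and 47 of the 51 were protein-coding. The RefSeq annotation holds 124 protein-coding genes with such symbols, of which 77 were not analysed here. Those 77 include every structural subunit of complexes I and II, cytochrome c and most subunits of ATP synthase. Genes of complexes III and IV are also among them, such as UQCRFS1, UQCRQ, COX10 and COX15. The account below therefore concerns part of complexes III and IV, 3 genes of complex V, and assembly factors of complexes I and II.

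All 6 samples carried the same background transfection, which the study used to raise EGOT: a PKR expression plasmid (0.3 µg within 1 µg of plasmid DNA) and poly I:C. Poly I:C mimics the double-stranded RNA of viruses, which switches on the kinase PKR. The EGOT gapmer group (n = 3) was given in addition 50 pmol of an antisense oligonucleotide against EGOT, and the control gapmer group (n = 3) 50 pmol of an unrelated one. RNA was isolated 36 hours after transfection and hybridised to Affymetrix whole-transcript arrays. The design holds 1 oligonucleotide per group and no cells without PKR and poly I:C, and the labels do not say whether replicates were separate cultures. The p-values given here then cover only the spread among these arrays, which may be technical. Sequences are shown because the comparison rests on them. The labels give a target sequence for the EGOT gapmer and a sequence for the control gapmer.
EGOT gapmer target: AGAGACACTTAGAAGA
control gapmer: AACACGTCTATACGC

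Electrons from NADH enter the chain at complex I and those from succinate at complex II. Both pass by coenzyme Q to complex III, then by cytochrome c to complex IV, which reduces oxygen. The proton gradient made on the way drives complex V, the ATP synthase. Most subunits are encoded in the nucleus and join a core encoded by mitochondrial DNA, and dedicated assembly factors insert the copper, haem and flavin groups. Hepatocytes are rich in mitochondria and rely on them for most of their ATP.

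EGOT itself fell. Its log2 expression was 4.91, 4.90 and 4.69 in EGOT gapmer replicates 1 to 3, against 6.29, 6.79 and 6.71 in control gapmer replicates 1 to 3 (log2 difference -1.76, limma adjusted p = 0.0076). EIF2AK2, the gene for PKR, was also lower, at 10.60, 10.76 and 10.70 with the EGOT gapmer and 11.28, 11.25 and 11.24 with the control gapmer (log2 difference -0.57, limma adjusted p = 0.0119). All cells were also given a PKR plasmid, and transcripts of the plasmid and of the gene cannot be told apart here. The part of the EIF2AK2 difference in the results on the respiratory chain was not tested. The EGOT gapmer arrays were spread on principal component 2, with scores of -9.4, 16.9 and -13.3 in replicates 1 to 3. The control gapmer arrays scored 5.7, 0.3 and -0.2. EGOT gapmer replicate 2 also had the highest median over all probe sets (5.23, against 5.08 and 5.12 in the other EGOT gapmer arrays and 5.12 to 5.15 in the control gapmer arrays). Of 9 hepatocyte and hepatoma markers 7 were measured, and 1, APOA1, rose, while 4 were below 0. In APOB (-0.18) and TTR (-0.13) all EGOT gapmer arrays lay below all control gapmer arrays without passing. Over all named genes 5.2% passed as higher and 3.21% as lower (limma adjusted p under 0.05), and 11.5% separated downward. The 7 markers here, and the 4 leukocyte markers below, are few beside such shares. The mean log2 level of the 7 markers was 12.20 to 12.21 with the EGOT gapmer and 12.18 to 12.22 with the control gapmer, led by ALB and AFP. Of 7 leukocyte markers 4 were measured and 2 rose, CD68 by 1.06 and LYZ by 0.57, while CD2 (0.34) and CD14 (-0.06) did not pass. Their mean was 7.34 to 7.49 with the EGOT gapmer and 6.90 to 6.99 with the control gapmer, and the part of this in the results was not tested. Because all samples were the HuH7 line, these markers are given as transcript levels and not as counts of cell types. None of the 2 endothelial and 2 fibroblast markers measured passed, with means of 4.01 to 4.57 and 3.19 to 3.28 in the EGOT gapmer arrays and 4.01 to 4.20 and 2.97 to 3.20 in the control gapmer arrays.

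Across the 47 protein-coding members 10 rose and 0 fell with the EGOT gapmer (limma, Benjamini-Hochberg adjusted p under 0.05 over all 14812 named genes). Of all named genes 5.2% passed as higher and 3.21% as lower in the same fit. Under another quantile normalization or cyclic loess 9 rose and 1, UQCC1, fell, where 679 and 644 of all named genes rose (4.58% and 4.35%) and 674 and 677 fell. The members that rose were UQCRH, UQCRHL, UQCC2, UQCC3 and UQCC5 of complex III, COX6B1, COX17 and SURF1 of complex IV, and ATP5IF1 and ATP5MJ of complex V. The rises were small, between 0.31 for UQCRH and 0.57 for ATP5MJ on the log2 scale, or 1.24-fold to 1.48-fold. Among the 47, 39 had a log2 difference above 0 (83.0%) and 8 below, with a median of 0.18 and a range of -0.38 to 0.57. Over all named genes 57.8% were above 0 and the median was 0.04.

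In 25 members all EGOT gapmer arrays lay above all control gapmer arrays, and in 1 member, UQCC1, all lay below. The same separation was found upward in 20.2% and downward in 11.5% of all named genes. The mean log2 level of the 47 members was 7.34, 7.47 and 7.39 in EGOT gapmer replicates 1 to 3, against 7.22, 7.22 and 7.25 in control gapmer replicates 1 to 3. The groups did not overlap, and EGOT gapmer replicate 2 was the highest. The mean over all 14812 named genes separated the same way by less, at 6.2218, 6.3076 and 6.2228 with the EGOT gapmer and 6.2147, 6.2155 and 6.2116 with the control gapmer. At an unadjusted p under 0.05 there were 22 members among 3708 genes.

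The number of calls depended on single arrays, for the members as for all genes. Without control gapmer replicate 1, 2 or 3, or without EGOT gapmer replicate 3, 0 members passed by limma, although 18 to 20 then had an unadjusted p under 0.05, and without EGOT gapmer replicate 1 or 2 there were 6 and 3. Of all named genes 0.0135% to 0.466% passed as higher in the fits with 0 members, and 2.63% and 1.67% in those with 6 and 3. The median of the members stayed between 0.15 and 0.21 with 1 array left out.

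**Figure D1:**
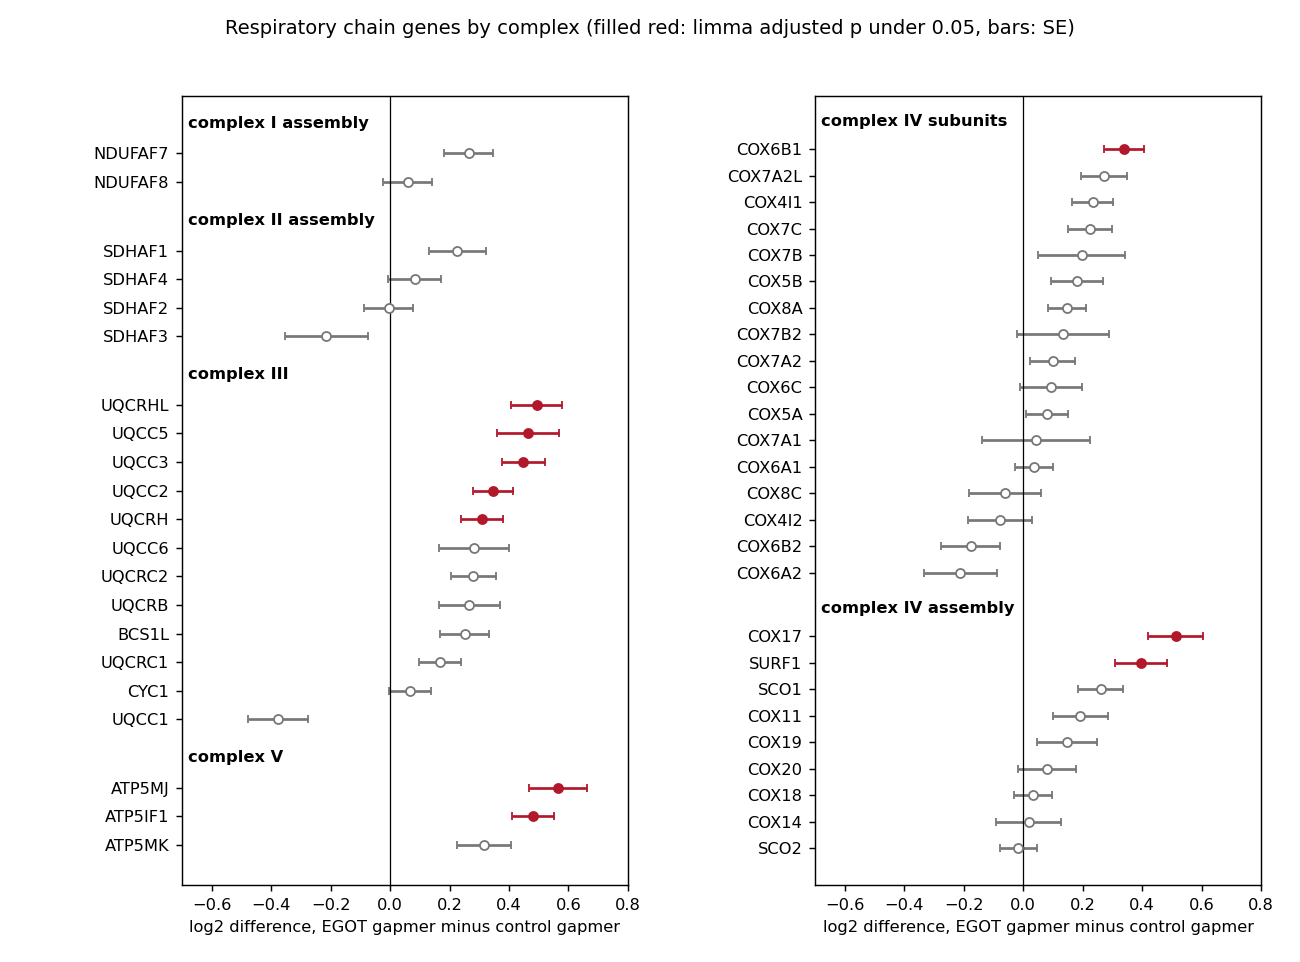
Log2 difference (EGOT gapmer minus control gapmer, horizontal axis) of each of the 47 protein-coding members, listed by complex, with bars for the standard error; filled red points passed at a limma adjusted p under 0.05 and open grey points did not. The 10 filled points lie between 0.31 and 0.57 and belong to complexes III, IV and V, and UQCC1 is the lowest point at -0.38.

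**Figure D2:**
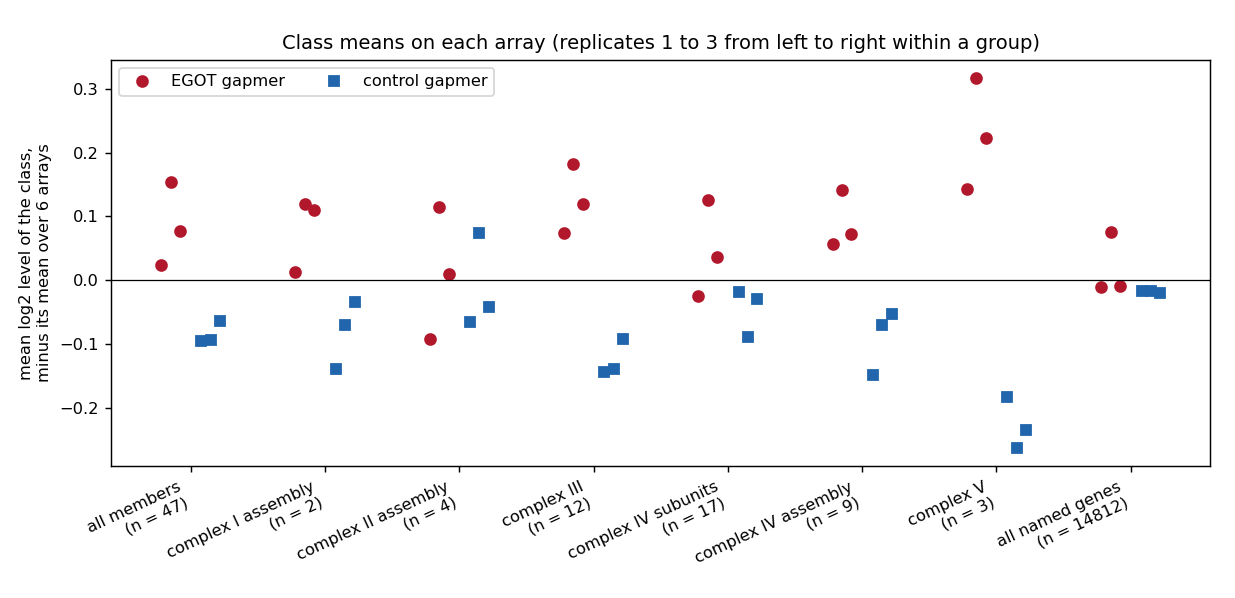
Mean log2 level of each class on each array minus that class's mean over the 6 arrays (vertical axis), with red circles for the 3 EGOT gapmer arrays and blue squares for the 3 control gapmer arrays, beside all members and all named genes. The groups are separate for all members, for complexes III and V, for the assembly factors of complexes I and IV and, by a smaller gap, for all named genes, while the assembly factors of complex II and the subunits of complex IV overlap.

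Promoters are printed for 4 genes that rose and for UQCC1, the gene whose arrays separated downward, so that the letters can be read beside their values. Windows run from 250 bases before to 50 bases after an annotated start and are those of RefSeq (GRCh38.p14), which matched 38 of the 47 members. Capitals mark matches on either strand to motifs of factors known for nuclear respiratory genes: GCGCANGCG for NRF1, CCGGAAG for ETS factors such as GABP, and AAGATGGC for YY1. Because GCGCANGCG can match both strands of the same stretch, NRF1 matches in COX17 overlap by all but a base, and no match of different motifs overlapped in the windows printed. The COX17 window is the second of 2, at chr3:119677357-119677656 on the minus strand, with NRF1 matches starting 116, 115 and 62 bases before the start and an ETS match after it. The UQCC2 window, chr6:33711651-33711950 on the minus strand, holds an NRF1 match 48 bases before the start and a YY1 match after it. ATP5MJ, at chr14:103921480-103921779 on the minus strand, has an NRF1 match 16 bases before the start. SURF1, at chr9:133356438-133356737 on the minus strand, has an ETS match just after the start. UQCC1, at chr20:35411924-35412223 on the minus strand, has NRF1 matches 114 and 90 bases before the start.
COX17: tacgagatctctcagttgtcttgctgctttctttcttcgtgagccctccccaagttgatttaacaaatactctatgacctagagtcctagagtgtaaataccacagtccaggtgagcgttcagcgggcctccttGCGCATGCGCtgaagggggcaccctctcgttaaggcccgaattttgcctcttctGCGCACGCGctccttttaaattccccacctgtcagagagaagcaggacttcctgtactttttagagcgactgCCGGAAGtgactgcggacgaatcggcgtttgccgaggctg
UQCC2: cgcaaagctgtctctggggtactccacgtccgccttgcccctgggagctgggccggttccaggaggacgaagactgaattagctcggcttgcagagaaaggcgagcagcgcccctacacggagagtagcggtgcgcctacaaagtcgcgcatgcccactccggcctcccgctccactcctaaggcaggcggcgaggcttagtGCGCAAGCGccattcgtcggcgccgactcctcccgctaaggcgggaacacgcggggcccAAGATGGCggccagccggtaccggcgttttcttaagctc
ATP5MJ: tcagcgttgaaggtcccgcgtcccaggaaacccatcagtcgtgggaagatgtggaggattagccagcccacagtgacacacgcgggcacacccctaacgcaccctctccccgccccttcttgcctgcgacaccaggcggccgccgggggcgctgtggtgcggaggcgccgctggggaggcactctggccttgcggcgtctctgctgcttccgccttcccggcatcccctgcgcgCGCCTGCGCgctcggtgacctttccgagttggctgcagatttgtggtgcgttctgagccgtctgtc
SURF1: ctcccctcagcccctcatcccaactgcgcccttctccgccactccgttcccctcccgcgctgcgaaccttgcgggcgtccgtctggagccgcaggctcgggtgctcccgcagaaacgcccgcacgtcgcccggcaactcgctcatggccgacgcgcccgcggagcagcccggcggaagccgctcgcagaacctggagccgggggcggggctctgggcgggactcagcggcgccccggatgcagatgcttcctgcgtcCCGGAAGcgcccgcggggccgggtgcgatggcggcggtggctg
UQCC1: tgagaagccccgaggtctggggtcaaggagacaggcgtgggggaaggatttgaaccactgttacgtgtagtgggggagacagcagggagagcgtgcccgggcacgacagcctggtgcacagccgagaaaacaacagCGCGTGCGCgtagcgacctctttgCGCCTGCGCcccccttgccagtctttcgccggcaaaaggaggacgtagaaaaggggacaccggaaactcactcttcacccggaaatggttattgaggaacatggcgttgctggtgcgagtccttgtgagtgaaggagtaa

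The NRF1 motif was present in 11 of the 38 members with a window (28.9%), against 7.52% of all 35116 windows and 13.5% of the 9704 tested protein-coding genes with a window. The ETS motif was present in 14 members (36.8%), against 10.3% of windows and 17.9% of those genes. YY1's motif was present in 3 members (7.89%), against 2.89% of windows and 5.16% of those genes. Of the 8 members that rose and had a window, 4 held the NRF1 motif (ATP5MJ, COX17, UQCC2 and UQCC5), 4 the ETS motif (COX17, COX6B1, SURF1 and UQCRH) and 1 the YY1 motif. Of the 30 other members with a window, 7 held NRF1, 10 held ETS and 2 held YY1. A match of letters describes the window and is not a measured binding site. The transcripts of NRF1 and YY1 differed by 0.03 and -0.01 between the groups and did not pass (limma adjusted p = 0.885 and 0.98).

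Complex III passes electrons by way of haem groups to cytochrome c. Beside 5.2% of all named genes higher and 3.21% lower, 5 of its 12 measured genes rose and 0 fell. Its median log2 difference was 0.28, and 11 of the 12 were above 0. The class mean was 7.77, 7.87 and 7.81 in the EGOT gapmer arrays and 7.55, 7.55 and 7.60 in the control gapmer arrays, without overlap. Of the 6 genes counted as subunits 2 rose, UQCRH and its copy UQCRHL, and of the 6 assembly factors 3 rose. Subunit genes such as UQCRFS1 and UQCRQ were not analysed here.

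Among the subunits of complex III, UQCRH encodes the hinge protein that helps cytochrome c1 meet cytochrome c. UQCRH read 5.96, 6.03 and 5.88 with the EGOT gapmer and 5.62, 5.66 and 5.66 with the control gapmer (log2 difference 0.31, SE 0.071, limma adjusted p = 0.0442). UQCRHL, a near-identical intronless copy of that gene, read 7.88, 8.11 and 7.96 with the EGOT gapmer and 7.41, 7.56 and 7.50 with the control gapmer (log2 difference 0.49, SE 0.086, limma adjusted p = 0.0233). Both separated the groups, but reads of the copies by each probe set cannot be told apart, so they may be a single measurement.

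The core proteins UQCRC1 and UQCRC2 face the matrix and frame the complex. UQCRC2 was the brightest probe set of the class, at 10.22, 10.40 and 10.36 with the EGOT gapmer and 10.08, 10.04 and 10.01 with the control gapmer, a log2 difference of 0.28 (limma adjusted p = 0.065, not passing). For UQCRC1 the difference was 0.17 (limma adjusted p = 0.192). In both core genes the groups did not overlap. UQCRB, a subunit near the ubiquinone pocket, differed by 0.27 (limma adjusted p = 0.158), with EGOT gapmer replicate 1 (6.46) below control gapmer replicate 1 (6.48). CYC1, cytochrome c1, differed least of the subunits, at 8.17, 8.14 and 8.05 with the EGOT gapmer and 8.09, 8.07 and 8.01 with the control gapmer (log2 difference 0.07, limma adjusted p = 0.62).

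Among the assembly factors of complex III, 3 rose, and UQCC1 had the lowest difference of all 47 members. UQCC2, which binds newly made cytochrome b, read 8.28, 8.26 and 8.31 with the EGOT gapmer and 7.96, 7.89 and 7.96 with the control gapmer (log2 difference 0.35, SE 0.066, limma adjusted p = 0.0283). UQCC3, which acts on cytochrome b at a later step, read 6.61, 6.66 and 6.59 with the EGOT gapmer and 6.14, 6.12 and 6.25 with the control gapmer (log2 difference 0.45, SE 0.072, limma adjusted p = 0.0196). UQCC5 read 6.96, 7.21 and 7.23 with the EGOT gapmer and 6.53, 6.71 and 6.76 with the control gapmer (log2 difference 0.46, SE 0.105, limma adjusted p = 0.0426). The gap between groups was wider than the spread within either one for UQCC2 and UQCC3, whereas in UQCC5 replicate 1 was the lowest of each group.

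UQCC1, the partner of UQCC2 on cytochrome b, lay on the other side of 0. It read 7.73, 7.92 and 7.80 with the EGOT gapmer and 8.02, 8.33 and 8.23 with the control gapmer, so the groups separated downward, but the difference of -0.38 (SE 0.101) did not pass (limma adjusted p = 0.0649). It passed as lower in 4 of 14 alternative settings: another quantile normalization, cyclic loess, a variance trend, and the test of brighter genes only. BCS1L, which inserts the Rieske iron-sulphur protein, differed by 0.25 (limma adjusted p = 0.11), at 8.71, 8.74 and 8.59 with the EGOT gapmer and 8.42, 8.35 and 8.53 with the control gapmer. UQCC6, also known as brawnin, differed by 0.28 (limma adjusted p = 0.197), and its control gapmer arrays ranged between 6.68 and 7.13.

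**Figure D3:**
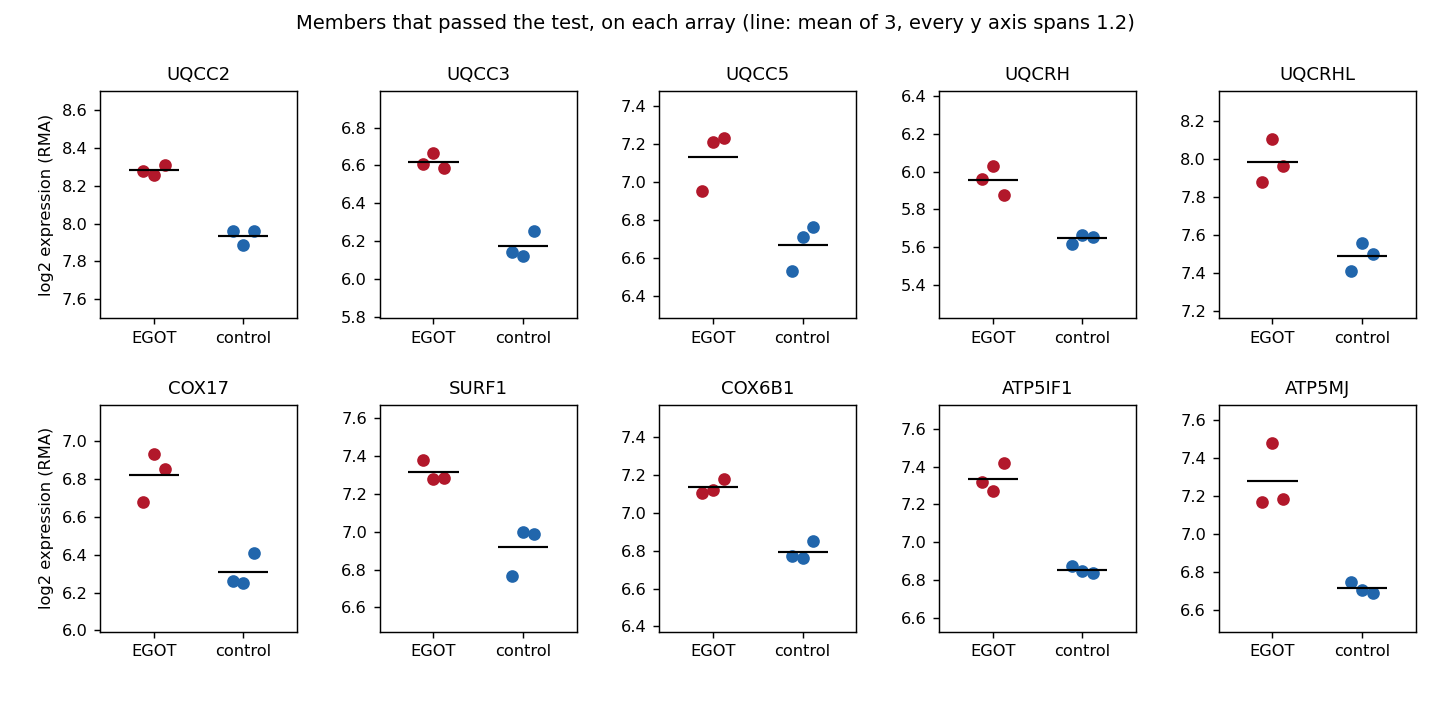
Log2 expression of the 10 members that passed, with red points for the 3 EGOT gapmer arrays at the left and blue points for the 3 control gapmer arrays at the right of each panel, and a line at each group's mean; every vertical axis spans 1.2. In each of the 10 panels all EGOT gapmer points lie above all control gapmer points.

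Complex IV, cytochrome c oxidase, was represented by 17 subunit genes. Of these 1 rose and 0 fell, where 5.2% of all named genes rose and 3.21% fell. The median was 0.10, and the class mean was 7.08, 7.23 and 7.14 with the EGOT gapmer and 7.08, 7.01 and 7.07 with the control gapmer. The subunit genes fall into 11 isoforms that are expressed in most tissues and 6 that are known for restricted expression, in heart and skeletal muscle, lung or testis. All 11 general isoforms had differences above 0, with a median of 0.18 and 7 without overlap of the groups. Of the 6 restricted isoforms 2 were above 0, with a median of -0.07 and 0 without overlap. Over all named genes 57.8% were above 0, and the groups separated upward in 20.2% and downward in 11.5%. The 6 restricted isoforms are few beside such shares. With the trend on gene span removed, as described further on, COX5A, COX6A1 and COX7A1 were also below 0. COX4I2, COX6A2, COX6B2 and COX8C were then further below 0 than as deposited. On all 6 arrays, 8 members lay below the median of the named genes, and these were the 6 restricted isoforms, COX14 and UQCRH. Background can compress a difference at such levels.

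COX6B1, which faces the intermembrane space and joins the monomers of complex IV, was the subunit gene that rose. It read 7.11, 7.12 and 7.18 with the EGOT gapmer and 6.77, 6.76 and 6.85 with the control gapmer (log2 difference 0.34, SE 0.068, limma adjusted p = 0.0305). Its testis counterpart COX6B2 read 4.27, 4.44 and 4.58 with the EGOT gapmer and 4.70, 4.57 and 4.54 with the control gapmer (log2 difference -0.18, limma adjusted p = 0.32). The COX6B1 groups were apart, and those of COX6B2 overlapped.

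COX4I1 and COX4I2 are alternative forms of a nuclear-encoded subunit, COX4I2 being known from lung and from hypoxic cells. COX4I1 read 10.94, 10.99 and 10.92 with the EGOT gapmer and 10.73, 10.65 and 10.76 with the control gapmer (log2 difference 0.23, limma adjusted p = 0.0855), without overlap. COX4I2 read 5.43, 5.76 and 5.66 with the EGOT gapmer and 5.81, 5.58 and 5.69 with the control gapmer (log2 difference -0.08, limma adjusted p = 0.709).

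For COX6A1, the general form of subunit VIa and the brightest probe set among complex IV subunits, the arrays read 11.80, 11.83 and 11.82 with the EGOT gapmer and 11.82, 11.76 and 11.77 with the control gapmer (log2 difference 0.04, limma adjusted p = 0.786). A dimmer probe set of COX6A1 had a mean of 4.90 with the EGOT gapmer and 4.59 with the control gapmer, a log2 difference of 0.31. With the mean of both probe sets COX6A1 differed by 0.17 (limma adjusted p = 0.281). COX6A2, the muscle form, had the lowest difference of the complex IV genes, with 5.41, 5.76 and 5.30 in the EGOT gapmer arrays and 5.71, 5.72 and 5.68 in the control gapmer arrays (log2 difference -0.21, limma adjusted p = 0.343). EGOT gapmer replicate 2 was the highest of those 6 values, so the difference came from the other EGOT gapmer arrays.

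Subunit VIIa and its relatives differed among themselves. COX7A2L, which links complex III to complex IV in supercomplexes, read 6.61, 6.69 and 6.72 with the EGOT gapmer and 6.42, 6.47 and 6.30 with the control gapmer (log2 difference 0.27, SE 0.077, limma adjusted p = 0.0736). COX7A2, the general form, read 7.04, 6.91 and 6.95 with the EGOT gapmer and 6.85, 6.81 and 6.95 with the control gapmer (log2 difference 0.10, limma adjusted p = 0.481). The muscle form COX7A1 varied most within a group, at 4.83, 5.48 and 5.02 with the EGOT gapmer and 4.83, 5.16 and 5.21 with the control gapmer (log2 difference 0.04, limma adjusted p = 0.916). The groups were thus apart for COX7A2L alone among these 3 genes.

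Of the COX7B and COX8 pairs, COX7B read 6.52, 6.55 and 6.49 with the EGOT gapmer and 6.61, 6.00 and 6.36 with the control gapmer (log2 difference 0.20, limma adjusted p = 0.466). Its testis form COX7B2 read 3.80, 4.38 and 3.82 with the EGOT gapmer and 3.82, 3.89 and 3.88 with the control gapmer (log2 difference 0.13, limma adjusted p = 0.659), so that only EGOT gapmer replicate 2 was above the control gapmer arrays. COX8A, the general form of the smallest subunit, read 10.19, 10.15 and 10.18 with the EGOT gapmer and 10.01, 10.00 and 10.06 with the control gapmer (log2 difference 0.15, limma adjusted p = 0.207). The COX8A groups were apart although the difference did not pass. COX8C, its testis form, read 4.06, 4.24 and 4.23 with the EGOT gapmer and 4.42, 4.0 and 4.29 with the control gapmer (log2 difference -0.06, limma adjusted p = 0.808).

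The remaining general subunits had small positive differences that did not pass. COX7C had one of 0.22 (limma adjusted p = 0.107), COX5B of 0.18 (limma adjusted p = 0.252), COX6C of 0.09 (limma adjusted p = 0.646) and COX5A of 0.08 (limma adjusted p = 0.558). The groups did not overlap in COX7C, COX5B and COX5A, narrowly so in COX5A, whereas in COX6C EGOT gapmer replicate 1 (6.21) lay below all control gapmer arrays.

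Of the 9 assembly factors of complex IV measured here, 2 rose and 0 fell, beside 5.2% and 3.21% of all named genes. These factors had a median of 0.15. Their mean was 7.34, 7.43 and 7.36 with the EGOT gapmer and 7.14, 7.22 and 7.24 with the control gapmer. Copper delivery accounted for 5 of them. COX17, the chaperone that hands copper on to SCO1 and COX11, rose most. It read 6.68, 6.93 and 6.85 with the EGOT gapmer and 6.26, 6.25 and 6.41 with the control gapmer (log2 difference 0.51, SE 0.092, limma adjusted p = 0.025), so the groups were apart by more than the spread within the control gapmer arrays.

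The genes that receive copper after COX17 did not pass. SCO1, needed for the copper site of subunit COX2 and the brightest probe set among these factors, read 8.82, 8.94 and 8.99 with the EGOT gapmer and 8.69, 8.68 and 8.59 with the control gapmer (log2 difference 0.26, SE 0.076, limma adjusted p = 0.0813). COX11, needed for the copper site of subunit COX1, read 7.73, 7.96 and 7.67 with the EGOT gapmer and 7.54, 7.65 and 7.60 with the control gapmer (log2 difference 0.19, limma adjusted p = 0.256). In both the groups were apart, narrowly so in COX11. SCO2, the paralog of SCO1, read 7.10, 7.11 and 7.08 with the EGOT gapmer and 7.11, 7.10 and 7.13 with the control gapmer (log2 difference -0.02, SE 0.063, limma adjusted p = 0.906). COX19, a further copper protein of the intermembrane space, differed by 0.15 (limma adjusted p = 0.433).

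Of the other 4 assembly factors of complex IV, SURF1 rose. SURF1 acts early in assembly around COX1, and its loss is a known cause of Leigh syndrome. The arrays read 7.38, 7.28 and 7.28 with the EGOT gapmer and 6.76, 7.0 and 6.99 with the control gapmer (log2 difference 0.40, SE 0.088, limma adjusted p = 0.0401). Control gapmer replicate 1 was the lowest and EGOT gapmer replicate 1 the highest of these values. COX20, which guards newly made COX2, read 8.56, 8.78 and 8.45 with the EGOT gapmer and 8.57, 8.50 and 8.47 with the control gapmer (log2 difference 0.08, limma adjusted p = 0.676). COX18, which moves the end of COX2 across the membrane, and COX14, which binds new COX1, differed by 0.03 and 0.02 (limma adjusted p = 0.81 and 0.941), with overlapping groups.

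Complex V was represented by 3 genes, and 2 of them rose, beside 5.2% of all named genes. The mean of the 3 was 7.30, 7.47 and 7.38 with the EGOT gapmer and 6.97, 6.89 and 6.92 with the control gapmer, and the median difference was 0.48. ATP5IF1 encodes the inhibitor that stops ATP synthase from running backwards and spending ATP when the membrane potential is lost. It read 7.32, 7.27 and 7.42 with the EGOT gapmer and 6.88, 6.85 and 6.84 with the control gapmer (log2 difference 0.48, SE 0.070, limma adjusted p = 0.0159), the smallest adjusted p of the 47 members.

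ATP5MJ and ATP5MK encode small proteins of the membrane part of ATP synthase. ATP5MJ read 7.17, 7.48 and 7.19 with the EGOT gapmer and 6.74, 6.71 and 6.69 with the control gapmer (log2 difference 0.57, SE 0.099, limma adjusted p = 0.0233), the highest difference of the 47. ATP5MK read 7.41, 7.67 and 7.53 with the EGOT gapmer and 7.30, 7.13 and 7.24 with the control gapmer (log2 difference 0.32, SE 0.091, limma adjusted p = 0.0795). EGOT gapmer replicate 2 was the highest array for both genes, and the groups did not overlap in either. The catalytic subunits and the membrane ring of the enzyme were not analysed here.

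For complexes I and II only assembly factors were measured, 2 and 4 genes, and 0 passed. Of all named genes 5.2% passed as higher and 3.21% as lower, so 0 among so few genes is close to such shares. Over all named genes the groups separated upward in 20.2% and downward in 11.5%, shares that also apply to the complex II factors below. NDUFAF7, a methyltransferase that acts on a core subunit of complex I, read 7.78, 7.82 and 7.82 with the EGOT gapmer and 7.42, 7.66 and 7.55 with the control gapmer (log2 difference 0.26, SE 0.082, limma adjusted p = 0.0954). NDUFAF8, which stabilises another complex I assembly factor, read 7.83, 8.0 and 7.98 with the EGOT gapmer and 7.89, 7.79 and 7.96 with the control gapmer (log2 difference 0.06, limma adjusted p = 0.725). The groups were apart in NDUFAF7 and overlapped in NDUFAF8.

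The complex II factors ranged between -0.21 and 0.23, with a median of 0.04, which was -0.01 after another quantile normalization or cyclic loess, and class means of 6.94, 7.14 and 7.04 with the EGOT gapmer and 6.96, 7.10 and 6.99 with the control gapmer. SDHAF1, which helps load iron-sulphur clusters into SDHB, read 6.51, 6.79 and 6.54 with the EGOT gapmer and 6.33, 6.47 and 6.36 with the control gapmer (log2 difference 0.23, limma adjusted p = 0.2). SDHAF3, which acts on the same subunit, read 6.43, 6.85 and 6.73 with the EGOT gapmer and 6.71, 7.09 and 6.85 with the control gapmer (log2 difference -0.21, limma adjusted p = 0.401). The groups were apart for SDHAF1 and overlapped for SDHAF3. SDHAF2, which attaches flavin to SDHA, read 7.83, 7.97 and 7.94 with the EGOT gapmer and 7.81, 7.92 and 8.02 with the control gapmer (log2 difference -0.01, limma adjusted p = 0.979). SDHAF4, which binds flavin-carrying SDHA, differed by 0.08 (limma adjusted p = 0.628).

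The 4 other symbols were 3 long noncoding RNAs and a transcribed pseudogene, and 0 passed, where 5.2% of all named genes rose and 3.21% fell. COX10-DT and NDUFA6-DT, transcribed away from COX10 and NDUFA6, differed by -0.22 and -0.26 (limma adjusted p = 0.251 and 0.286). NDUFB2-AS1, antisense to NDUFB2, differed by 0.09 (limma adjusted p = 0.542). UQCRBP1, a pseudogene of UQCRB, differed by 0.33 (limma adjusted p = 0.205) at log2 levels of 3.16, 3.57 and 3.35 with the EGOT gapmer and 2.85, 3.26 and 2.99 with the control gapmer.

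Gene span, the genomic length of a gene, moved with the difference across these arrays. Over the 14812 named genes the correlation of log10 span with the log2 difference was -0.17 (Pearson's r across genes, which are not independent replicates), and over the 47 members -0.14. The members are short, with a median span of 9242 bases against 26731 for all protein-coding genes. The 2 longest were COX7B2, with 174419 bases, and UQCC1, with 109396. After the trend on span was removed from all arrays, 5 of the 47 members rose and 0 fell, where 2.58% of all named genes passed as higher and 2.23% as lower. The 5 were UQCRHL at 0.44 (limma adjusted p = 0.0293), ATP5MJ at 0.48 (0.0307), UQCC3 at 0.37 (0.0351), COX17 at 0.43 (0.039) and ATP5IF1 at 0.41 (0.04). The other 5 had differences of 0.22 to 0.38 and no longer passed, with limma adjusted p of 0.0769 for UQCC2, 0.0849 for UQCC5, 0.0875 for COX6B1, 0.0954 for UQCRH and 0.108 for SURF1. The median of the members was then 0.11, beside 0.0013 for all named genes, and 31 of 47 were above 0.

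**Figure D4:**
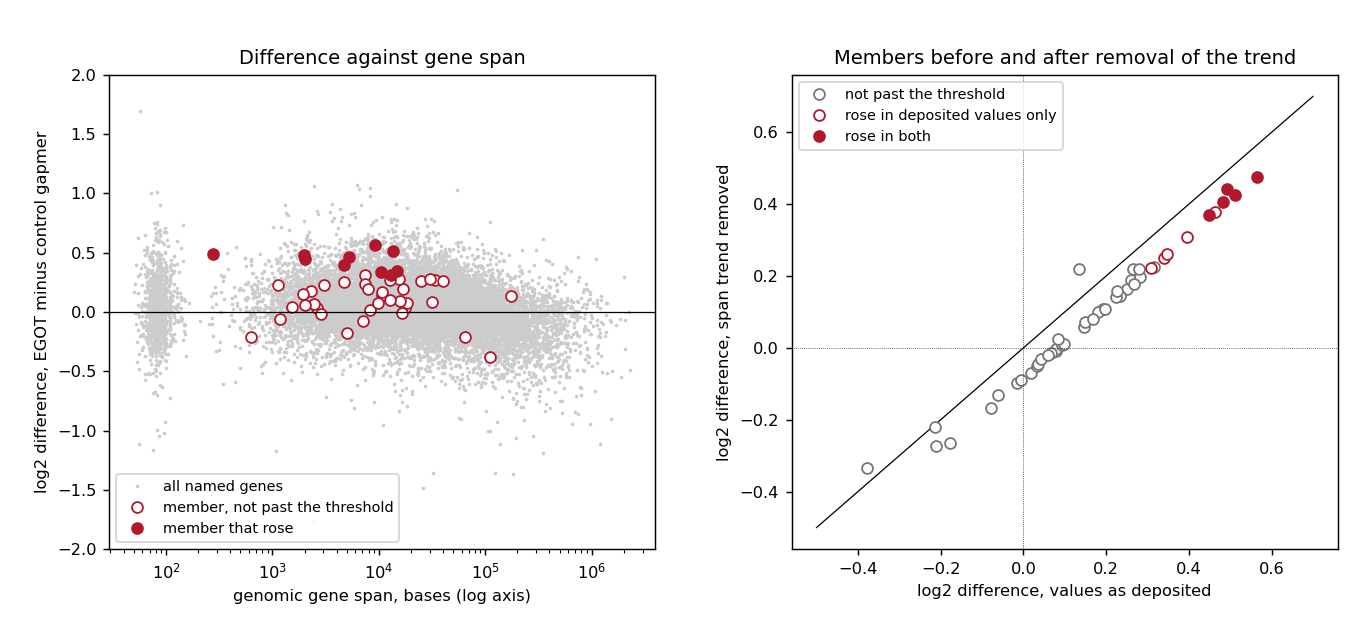
Left, log2 difference (EGOT gapmer minus control gapmer) against genomic gene span in bases on a log axis, with all named genes in grey and the members in red, filled where they rose. Right, each member's log2 difference as deposited against that with the span trend removed, with a line of equality; 5 filled points rose in both and 5 open red points in the deposited values only.

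Other genes of the same pathway, from lists of textbook members outside the symbol rule, were also measured. In the same fit 5.2% of all named genes passed as higher and 3.21% as lower. Of 35 assembly factors under other names 28 were measured, 3 rose and 0 fell, with 24 above 0 and a median of 0.21. TMEM70, which assembles ATP synthase, rose by 0.53 (limma adjusted p = 0.0173), COA3, which stabilises new COX1, by 0.44 (0.0344), and TMEM126B, part of the complex I assembly machinery, by 0.32 (0.0334). LRPPRC, which stabilises mitochondrial messenger RNAs, differed by -0.18 (limma adjusted p = 0.183). Of 21 genes for coenzyme Q and haem 12 were measured, 2 rose and 0 fell, with a median of 0.22. They were UROD, an enzyme of haem synthesis, by 0.55 (limma adjusted p = 0.0232), and COQ10B, a coenzyme Q binding protein, by 0.36 (0.0453). FECH, which inserts iron to finish haem, differed by 0.27 and did not pass (limma adjusted p = 0.187).

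Of 19 genes of the citric acid cycle and pyruvate dehydrogenase, which supply the chain with NADH, 11 were measured, 4 rose and 0 fell, with a median of 0.20. PDHB rose by 0.45 (limma adjusted p = 0.0171), IDH3B by 0.38 (0.0212), CS, citrate synthase, by 0.33 (0.0395) and DLD by 0.33 (0.0306). OGDH differed by -0.22 and did not pass (limma adjusted p = 0.107). Of 21 regulators of respiratory gene transcription and of mitochondrial DNA 9 were measured, and 1, TWNK, the mitochondrial DNA helicase, rose by 0.51 (limma adjusted p = 0.0233). The median of that list was 0.14, and ESRRA, a nuclear receptor known to act on respiratory genes, differed by 0.13 (limma adjusted p = 0.517). Subunits encoded by mitochondrial DNA, 13 in all, were not analysed here. Of all named genes 5.2% rose and 3.21% fell. Beside these lists, 18 of 73 mitochondrial ribosomal protein genes rose and 1 fell (median 0.21). Of 51 cytoplasmic ribosomal protein genes 11 rose and 0 fell (median 0.21). A positive median of this size was thus not limited to the respiratory chain.

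Neighbouring starts were searched only among genes with a promoter window, which 38 of the 47 members have, so pairs may be missing. Within that search, a neighbouring gene starts on the opposite strand within 1000 bases of the start of 8 members. Of these neighbours 6 were analysed, of which 0 passed, where 5.2% of all named genes passed as higher and 3.21% as lower. Among 6 genes, 0 is close to such shares. UQCRH, which rose, starts 82 bases from LRRC41, a leucine-rich repeat gene, which differed by 0.08 (limma adjusted p = 0.572). For SCO1 and ADPRM, 61 bases apart, the differences were 0.26 and 0.17, and for BCS1L and ZNF142, 60 bases apart, 0.25 and 0.23. For COX4I1 and EMC8 they were 0.23 and 0.06, for ATP5MK and PDCD11 0.32 and -0.11, and for NDUFAF8 and TEPSIN 0.06 and -0.10. The distance between starts is that of RefSeq, and the difference between a member and its neighbour was not tested.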

How the data were processed

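Per the submitters' processing notes, the authors made the deposited log2 values with RMA, which corrects background, sets all arrays to 1 distribution and combines the probes of each probe set. Its version is not given in the sources used here. A change in total RNA per cell is thereby hidden. All 44629 probe sets of 6 arrays were read, and 15835 carried 1 gene symbol in GEO's platform annotation. For genes with several probe sets (651) the brightest over all arrays was used, leaving 14812 genes. A probe set is called brightest only by its log2 value, and no level of transcript is compared between genes.

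EGOT gapmer minus control gapmer was fitted with limma 3.58.1 in R 4.3.3 (lmFit, eBayes, two-sided, Benjamini-Hochberg over all genes, threshold 0.05), which gave 7.19 degrees of freedom. The number of arrays limits precision: 3 against 3 allow no exact permutation p below 0.1. The fit was tested on simulated data. The members, lists, classes and tests were chosen with earlier results of these data known, and lists are described by counts and medians without a test. Values on every array are given for each member that rose, for the 2 smallest p, the lowest difference and the brightest probe set of each class, and for isoform pairs. Alternatives were another normalization (quantile, cyclic loess), a variance trend, a robust prior, the mean of probe sets, brighter genes only, removal of a lowess trend on RefSeq gene span, a replicate block and leaving out each array.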

Additional observations from a re-analysis of the deposited data

How the results depend on the processing

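Of the 47 members, 10 rose and 0 fell with the values unaltered. After another quantile normalization and after cyclic loess 9 rose and 1, UQCC1, fell, where 4.58% and 4.35% of all genes rose and 674 and 677 genes fell. A variance trend gave 18 and 1, and brighter genes only 18 and 1, of 39 tested, where 11.2% and 22.8% of the genes tested passed as higher. Removal of the trend on gene span gave 5 rising members. With 1 array left out between 0 and 6 rose, and 0.0135% to 2.63% of all genes. With the replicate block 0 members and 0 genes passed by limma (3438 genes and 21 members at an unadjusted p under 0.05). Same-numbered arrays correlated at -0.03, -0.05 and 0.04 in their deviations from the group means, and arrays of different number at -0.08 to 0.10. With 3 arrays in a group these deviations sum to 0, so the correlations cannot show whether same-numbered arrays were handled together. The labels do not say. The members' median of 0.18 was 0.1278 after another quantile normalization, 0.1318 after cyclic loess and 0.108 with the span trend removed. The median of all named genes also moved, from 0.0372 as deposited to 0.0037, 0.0025 and, with the span trend removed, 0.0013. With that trend removed the class medians were 0.1005 for complex I assembly, -0.0325 for complex II assembly, 0.2076 for complex III, 0.0109 for complex IV subunits, 0.0586 for complex IV assembly and 0.4052 for complex V. Complex II assembly, at 0.04 as deposited, was -0.0099 after another quantile normalization and -0.0086 after cyclic loess, and complex III was 0.2361 after cyclic loess. Complex IV subunits had a median of 0.1803 among brighter genes. With 1 array left out complex IV assembly lay between 0.1066 and 0.2104, complex IV subunits between 0.0444 (without EGOT gapmer replicate 2) and 0.1402, and complex II assembly between 0.0234 (without control gapmer replicate 3) and 0.0557. The sign changed in at least 1 of 14 alternatives in 13 members, 0 of which had passed. With the span trend removed COX14 was at -0.0708, COX18 at -0.0498, COX20 at -0.0094, COX5A at -0.0026, COX6A1 at -0.0447, COX7A1 at -0.0305, CYC1 at -0.0131 and NDUFAF8 at -0.0184. COX18 was at -0.0159 after another quantile normalization and -0.0154 after cyclic loess. With 1 array left out, COX14 ranged from -0.0927 to 0.0886, COX20 from -0.0114 to 0.1533, COX4I2 from -0.151 to 0.0119, COX6C from -0.0125 to 0.1778, COX7A1 from -0.1441 to 0.183, COX7B2 from -0.0566 to 0.2324, COX8C from -0.1792 to 0.0308 and SDHAF2 from -0.0591 to 0.0447. Causes of these shifts were not tested.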
